A study of Mus musculus with 78 samples.

Results

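Mice of a line bred for high anxiety-related behavior (HAB) were compared with mice of a line bred for low anxiety-related behavior (LAB) in the dentate gyrus (DG), the input field of the hippocampus. The comparison rested on 3 HAB and 3 LAB arrays out of 75 arrays with values in the series. Groups were taken from the array titles. Another 3 DG arrays (2 HAB and 1 LAB) were left out because they carried no values and were marked as excluded by their labels. The paper left out 3 samples as inadequate at the scan, but it places them in different brain regions. A line of normal anxiety-related behavior (NAB) gave 3 DG arrays that entered the fit for the estimate of the spread. All animals were males, 10 weeks old, of CD-1 strain and breeding generation 25, and each array held the RNA of a single mouse. The anterior DG was cut from stained brain slices by laser microdissection, and its RNA was amplified and hybridised to Illumina MouseWG-6 v1.1 bead arrays, whose probes each bind a short stretch of a transcript. By the paper, samples of a region were hybridised in the same batch, so HAB and LAB in the DG were compared inside a batch. Whether arrays of a line shared a slide was not tested. Where batches differed between regions, region and batch cannot be told apart in comparisons of the DG with other regions. Each line is a closed breeding population, which limits it as a model of anxiety in general. The series also covered 4 other regions, namely the amygdala in its basolateral (BLA) and central (CeA) parts, the hypothalamic paraventricular nucleus (PVN) and the cingulate cortex (Cg).

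The principal cells of the DG are granule cells, small excitatory neurons that receive the cortical input to the hippocampus and pass it on through mossy fibers rich in zinc. New granule cells are added in adult life, and the region has been tied to stress reactivity and to the effects of antidepressant drugs. Granule cells are recognised by the transcription factor Prox1, the secreted C1q-like protein C1ql2 and the calcium-binding protein calbindin (Calb1). Other cells of the region include hilar mossy cells, interneurons, astrocytes, microglia, oligodendrocytes and the cells of blood vessels.

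Of 12 granule cell genes fixed as markers, Prox1, C1ql2, Calb1, Lct, Plk5 and Pdzd2 were brightest in the DG. Prox1 reached an intensity of 151 ± 14.5 in the DG (SD, n = 9 arrays of all lines), against means of 16.2 to 24.2 in the other regions, and C1ql2 reached 399 ± 44.9, against 37.1 to 165. Tdo2 lay above background in 3 of 9 DG arrays and in 0 arrays of the other regions. The other markers did not set the DG apart. C1ql3 averaged 24.9 in the DG and 40.2 in the BLA, Npnt 15.5 in the DG and 16.0 to 20.1 elsewhere, and Trpc6 13.7 in the DG and 12.9 to 13.7 elsewhere. Dsp and Stxbp6 were at background on every DG array. The 10 granule cell genes that could be tested summed to 1136 to 1284 in HAB, 1195 to 1262 in NAB and 1168 to 1284 in LAB, and 0 of them were called by limma (0 at an unadjusted p below 0.05). The background of an array was set from 1305 receptor probes for odorants and pheromones, as their 95th percentile, and ran from 6.99 to 10.6 in the DG, with the highest value and the smallest share of probes above it (29.9%) on HAB array 01. The choroid plexus transcript Ttr spread from 3.27 to 390 over the DG arrays and was highest in a single NAB array.

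HAB and LAB differed in the DG at 142 of 18664 probes tested (0.761%), of which 70 were higher in HAB (0.375%) and 72 lower (0.386%). A probe was tested where it lay above background in at least 3 of the 9 DG arrays, and it was called where the adjusted p of limma's test over all tested probes was below 0.05. At all 142 the 3 HAB values lay on one side of the 3 LAB values, as they did at 2770 probes in all (14.8%). Fitted differences of the called probes ran from 0.74 to 3.60 on the log2 scale among those higher in HAB and from 0.65 to 3.06 in size among those lower. The brighter line averaged under 20 at 21 probes higher and 23 lower in HAB, and over 100 at 10 and 9. At 29 probes higher and 27 lower in HAB every array of the dimmer line lay at background, and for these the fold is given as a bound (at least), with the array's background in place of the dimmer values. At another 11 higher and 12 lower probes 1 or 2 arrays of the dimmer line did. With the background as the floor of every array, 42 probes higher in HAB were beyond 2-fold and 9 beyond 4-fold, and 35 lower in HAB were beyond 2-fold and 5 beyond 4-fold.

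Over all tested probes the median difference was -0.09 on the log2 scale, and 66.8% of the probes had a lower mean in HAB. Unadjusted p was below 0.05 at 1534 probes. Quantile normalisation within the DG moved the median difference to -0.00 and left 138 probes called (73 higher and 65 lower). The count depended on single arrays: it was 74 without HAB array 01, 54 without HAB array 11, 80 without HAB array 17, 64 without LAB array 10, 81 without LAB array 14 and 76 without LAB array 16. In these 6 fits 49 of the 142 probes were called every time and 38 in none. No probe changed sign under any alternative tried. As HAB and LAB values did not overlap at any of the 142, most alternatives could not have changed a sign. In dissected tissue, fewer cells of a type and less RNA per cell cannot be told apart.

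**Figure D1:**
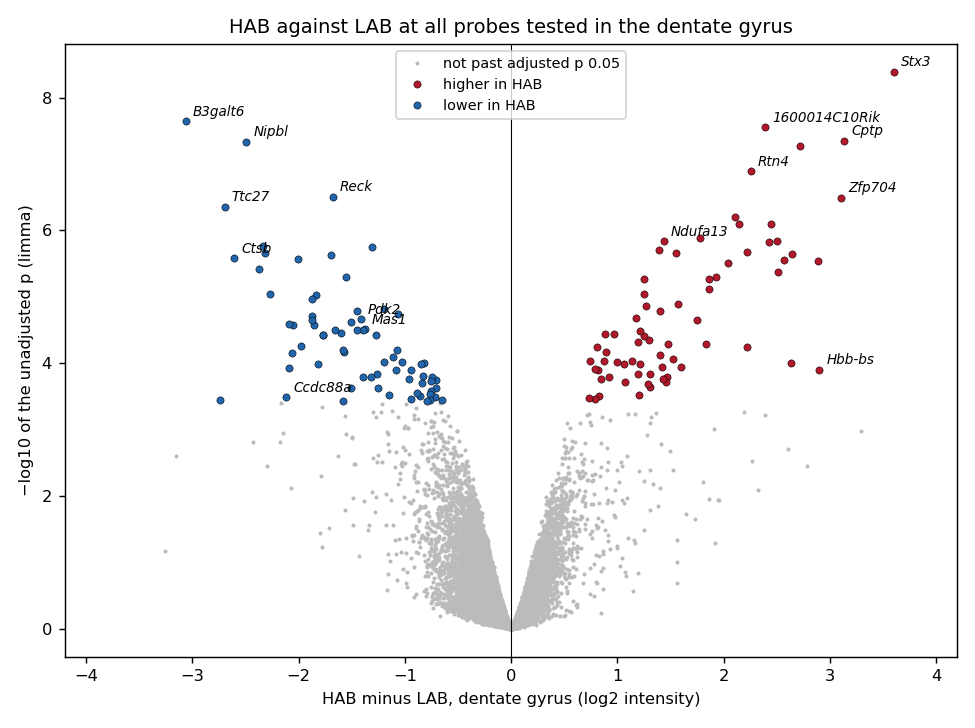
HAB minus LAB in the DG (x axis, log2 intensity) against the −log10 of limma's unadjusted p (y axis) for the 18664 probes tested; red points are the 70 called probes higher in HAB, blue points the 72 lower, and grey points the rest. Named points reach +3.60 for Stx3 and -3.06 for B3galt6, and the grey cloud lies slightly left of 0.

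The called probes belonged to 109 of 10813 named genes tested (1.01%), and 29 probes had no gene name in the annotation. They are ordered here by role, and genes beyond the largest differences and the fixed lists were picked for their role after their values were seen, so the grouping says nothing of how often a role occurs among the calls. Arrays are given in the order of their mouse numbers, 01, 11 and 17 for HAB, 02, 04 and 15 for NAB and 10, 14 and 16 for LAB.

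Stx3, Yipf4 and Rgp1, which act in vesicle fusion or at the Golgi, were each higher in HAB at 1 probe. Stx3, a syntaxin of the plasma membrane that takes part in vesicle fusion at the synapse, had 54.8, 55.6 and 50.2 in HAB mice, 3.45, 4.02 and 3.76 in NAB mice and 3.55, 4.79 and 5.02 in LAB mice. Only the HAB arrays stood above background, and this Stx3 probe was at least 6.93-fold higher in HAB (adjusted p = 7.62e-05). By qPCR the paper found the opposite direction for Stx3, also in separate BLA samples. It proposes that sequence variants of the gene could raise probe binding to the HAB transcript, which was not tested here. The gene's other tested probe read 15.4 ± 1.73 in HAB and 15.6 ± 1.84 in LAB (means ± SD, n = 3 mice a line as throughout, a log2 difference of -0.02 and adjusted p = 0.989), so the rise was seen at 1 of 2 probes. Yipf4, a membrane protein of the Golgi, had 27.1, 23.2 and 18.6 in HAB mice, 38.5, 24.7 and 27.6 in NAB mice and 3.97, 4.88 and 3.88 in LAB mice, and it was at least 2.94-fold higher in HAB (adjusted p = 0.00163). Here the NAB arrays sat with the HAB arrays. Rgp1, part of the complex that activates the Golgi GTPase Rab6, was 2.96-fold higher in HAB (log2 difference +1.57, SE 0.18, adjusted p = 0.00571).

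Arfgef2, Vps13a and Sbf2, which act at the Golgi, at membrane contacts and on endosomes, were each lower in HAB at 1 probe. Arfgef2, the exchange factor that loads Arf GTPases at the trans-Golgi, had 3.49, 3.50 and 4.62 in HAB mice and 13.1, 25.4 and 19.1 in LAB mice, and was at least 2.02-fold lower in HAB (adjusted p = 0.00438). Its other tested probes stood at -0.01 and -0.41 and did not pass. Vps13a, which carries lipids between membranes in contact, had 11.4, 7.31 and 7.15 in HAB mice, 31.8, 35.3 and 33.8 in NAB mice and 32.8, 37.1 and 31.7 in LAB mice, and was 4.02-fold lower in HAB (log2 difference -2.01, SE 0.18, adjusted p = 0.00184). HAB alone stood apart there, at background on 2 of 3 arrays, and the fold was 3.60 with the background as the floor. The other Vps13a probes stood at -0.18 and -0.09 and did not pass. Sbf2, a myotubularin-related protein of endosomes, was at least 1.65-fold lower in HAB (adjusted p = 0.00277), with its other probe at -0.42 (adjusted p = 0.89). Higher in HAB was 1 probe of Rtn4, the reticulon that shapes the tubules of the endoplasmic reticulum and restrains axon growth. It had 24.1, 25.9 and 26.6 in HAB mice, 5.33, 6.01 and 4.24 in NAB mice and 5.04, 5.49 and 5.54 in LAB mice, and was at least 3.31-fold higher in HAB (adjusted p = 0.000338). Its brightest probe averaged 333 ± 27.7 in HAB and 480 ± 61.3 in LAB and did not pass (-0.52, adjusted p = 0.208), so the probes of Rtn4 pointed in opposite directions. Of the 20 tested genes for synaptic vesicle release only Stx3 was called, and the median of their 31 probes was -0.16.

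**Figure D2:**
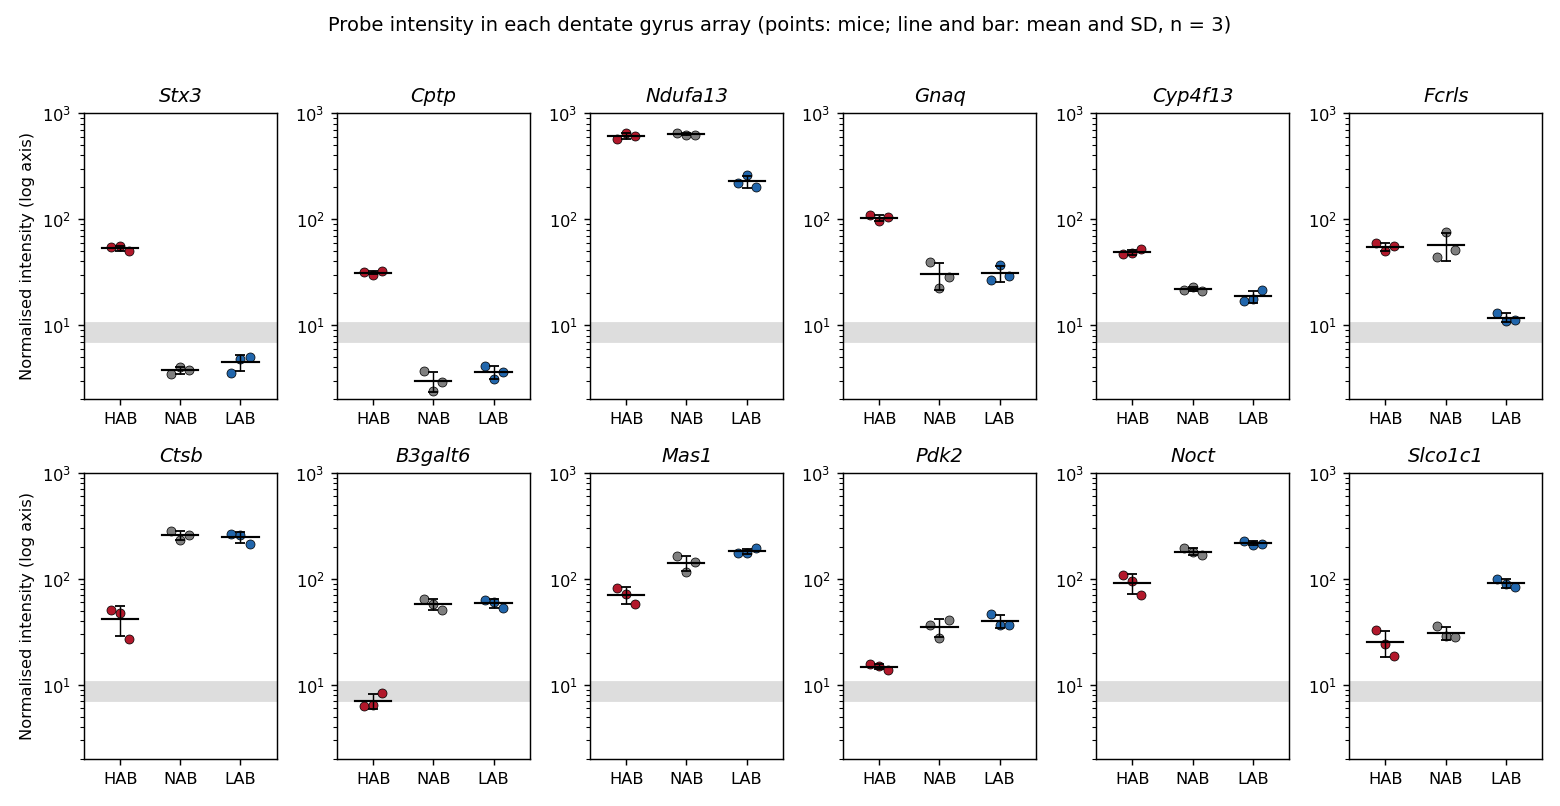
Normalised intensity (y axis, log scale) of 12 called probes in each DG array, grouped by line (HAB, NAB, LAB); points are mice, horizontal lines and bars are means and SD (n = 3), and the grey band is the range of the arrays' background. HAB stands alone at Stx3, Cptp, Gnaq, Ctsb, B3galt6 and Cyp4f13, whereas LAB stands alone at Ndufa13 and Fcrls, where NAB lies beside HAB, and at Slco1c1.

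Signalling genes included a G protein, its second messenger's kinase and a receptor. Gnaq, the alpha subunit that couples receptors to phospholipase C, had 109, 95.4 and 105 in HAB mice, 39.5, 22.6 and 28.3 in NAB mice and 26.8, 36.8 and 29.2 in LAB mice, and was 3.36-fold higher in HAB (log2 difference +1.75, SE 0.21, adjusted p = 0.00805). The 4 other tested Gnaq probes ran from -0.38 to +0.19 with adjusted p of at least 0.855, among them the brightest one (253 ± 19.0 in HAB and 264 ± 22.4 in LAB). Dgkq, a diacylglycerol kinase that removes the second messenger made by that route, was 2.45-fold higher in HAB (log2 difference +1.29, SE 0.21, adjusted p = 0.0321), and its other probe stood at -0.38 (adjusted p = 0.502). At the called Dgkq probe 1 LAB array lay above background, and the fold was 1.95 with the background as the floor. Mas1, the receptor for angiotensin-(1-7), had 82.7, 71.9 and 57.5 in HAB mice, 163, 116 and 144 in NAB mice and 177, 176 and 194 in LAB mice, and was 2.60-fold lower in HAB (log2 difference -1.38, SE 0.17, adjusted p = 0.00981). The lowest LAB array was above the highest HAB array by a wide margin, and Mas1 had a single tested probe. The call of Dgkq was lost without any one of these arrays other than LAB 14 (adjusted p up to 0.15). The call of Mas1 was lost without HAB 11, LAB 10 or LAB 16 (adjusted p up to 0.0549).

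Akap10, which anchors protein kinase A, had 6.26, 3.18 and 3.73 in HAB mice and 19.6, 16.9 and 17.5 in LAB mice, and was at least 1.96-fold lower in HAB (adjusted p = 0.00885). Its other tested probes stood at +0.04 and -0.17. Ccdc88a (girdin), which links receptors to actin, had 15.2, 15.8 and 15.6 in HAB mice, 23.5, 12.2 and 42.1 in NAB mice and 67.5, 66.1 and 68.9 in LAB mice. It was 4.35-fold lower in HAB (log2 difference -2.12, SE 0.37, adjusted p = 0.0455), with the NAB mean in the gap between the lines, and its other probe stood at -0.13 (adjusted p = 0.963). Wnt9a, a Wnt ligand, had 82.4, 76.8 and 77.4 in HAB mice and 34.7, 41.5 and 28.6 in LAB mice, and was 2.28-fold higher in HAB (log2 difference +1.19, SE 0.16, adjusted p = 0.0129). Rspo3, a secreted protein that strengthens Wnt signals, was 1.64-fold lower in HAB (log2 difference -0.72, SE 0.12, adjusted p = 0.0445). Ric3, a chaperone of nicotinic acetylcholine receptors, was 1.92-fold lower in HAB (log2 difference -0.94, SE 0.16, adjusted p = 0.0471). The calls of Ccdc88a, Rspo3 and Ric3 were lost without any one of the 6 HAB and LAB arrays (adjusted p up to 0.209). The call of Wnt9a was lost without HAB 01, HAB 11, HAB 17 or LAB 10 (adjusted p up to 0.0671). The call of Akap10 was lost without LAB 10 (adjusted p = 0.055).

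Ndufa13 and Cox6a2, both of the respiratory chain, were higher in HAB. Ndufa13, a subunit of respiratory complex I, had 576, 654 and 609 in HAB mice, 648, 621 and 627 in NAB mice and 220.4, 259 and 202 in LAB mice. It was 2.71-fold higher in HAB (log2 difference +1.44, SE 0.12, adjusted p = 0.00163), and NAB and HAB overlapped at levels above every LAB array. Cox6a2, a subunit of complex IV, had 23.1, 22.1 and 23.1 in HAB mice and 8.07, 7.66 and 7.64 in LAB mice, and was 2.92-fold higher in HAB (log2 difference +1.55, SE 0.14, adjusted p = 0.00172). The Cox6a2 fold was 2.82 with the background as the floor. The pyruvate dehydrogenase complex, which feeds the citric acid cycle, had 2 of 10 tested genes called, against 1.01% of all named genes tested. Nothing is read from this, as earlier results were known when the list was drawn up. Pdhb, the E1 beta subunit of the complex, had 1 probe with 25.7, 21.0 and 22.7 in HAB mice, 46.2, 43.1 and 34.8 in NAB mice and 4.51, 7.17 and 5.44 in LAB mice. This probe was 4.12-fold higher in HAB (log2 difference +2.04, SE 0.19, adjusted p = 0.00195). Only 1 LAB array lay above background there, and the fold was 2.96 with the background as the floor. The other Pdhb probe averaged 25.9 ± 4.15 in HAB and 50.4 ± 18.1 in LAB and did not pass (-0.92, adjusted p = 0.255), so its sign was the opposite. Pdk2, a kinase that switches the complex off, had 15.6, 15.1 and 13.9 in HAB mice, 36.5, 27.6 and 40.5 in NAB mice and 46.4, 36.6 and 36.5 in LAB mice, and was 2.66-fold lower in HAB (log2 difference -1.41, SE 0.17, adjusted p = 0.00805). The median over the 13 probes of the complex was -0.25, against -0.09 over all probes. The call of Pdk2 was lost without HAB 11 (adjusted p = 0.0505).

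Ahcy and Aldh3a2 were higher in HAB, and Msmo1, Pygb, Me2, Mrps27 and Slc25a32 were lower. Ahcy, which clears S-adenosylhomocysteine after methylation reactions, had 41.5, 42.1 and 29.8 in HAB mice and 17.5, 17.8 and 13.4 in LAB mice (+1.21, adjusted p = 0.0204). Aldh3a2, which oxidises fatty aldehydes, had 88.0, 79.3 and 89.7 in HAB mice and 35.8, 35.7 and 32.6 in LAB mice, and was 2.47-fold higher in HAB (log2 difference +1.30, SE 0.21, adjusted p = 0.0351). Msmo1, an enzyme of cholesterol synthesis, had 44.8, 32.4 and 23.8 in HAB mice, 109.8, 85.1 and 93.8 in NAB mice and 125, 114 and 96.2 in LAB mice, and was 3.41-fold lower in HAB (log2 difference -1.77, SE 0.23, adjusted p = 0.0106). It was the only one of 17 tested sterol synthesis genes to be called, and the median of their 24 probes was -0.17. Pygb, the glycogen phosphorylase of brain, had 69.6, 75.3 and 56.7 in HAB mice and 139, 144 and 150.1 in LAB mice, and was 2.16-fold lower in HAB (log2 difference -1.11, SE 0.16, adjusted p = 0.0182). The mitochondrial malic enzyme Me2 (-1.06, adjusted p = 0.00709), the mitoribosome subunit Mrps27 (-0.96, adjusted p = 0.0283) and the mitochondrial folate carrier Slc25a32 (at least 1.55-fold, adjusted p = 0.00442) were lower in HAB as well. The calls of Aldh3a2, Pygb and Mrps27 were lost without any one of the 6 HAB and LAB arrays (adjusted p up to 0.153). The call of Ahcy was lost without any one of these arrays other than HAB 17 (adjusted p up to 0.106). The call of Msmo1 was lost without HAB 11, LAB 10 or LAB 14 (adjusted p up to 0.0646). The call of Me2 was lost without HAB 11 (adjusted p = 0.0505).

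Cars and Vars2, both transfer RNA synthetases, were picked for their role after their values were seen, and the family was not examined as a list. Cars, which charges the transfer RNA of cysteine, had 48.5, 48.8 and 41.0 in HAB mice and 15.6, 20.9 and 12.5 in LAB mice (+1.52, adjusted p = 0.0195), and its other probe stood at -0.13 (adjusted p = 0.887). Vars2, the mitochondrial synthetase for valine, had 2 called probes in opposite directions: 1 was 4.30-fold higher in HAB (log2 difference +2.10, SE 0.16, adjusted p = 0.00108) and the other 1.69-fold lower in HAB (log2 difference -0.76, SE 0.12, adjusted p = 0.0297). The first was 3.33-fold higher with the background as the floor, as only 1 LAB array lay above it. No direction can be given for this gene. Among RNA-processing genes, Pop4 and Rpp14, both subunits of ribonuclease P, were lower in HAB. Pop4 had 59.5, 67.0 and 51.1 in HAB mice and 159.6, 123 and 126 in LAB mice (-1.20, adjusted p = 0.0203), and Rpp14 had 66.9, 68.3 and 64.2 in HAB mice and 129, 99.8 and 111 in LAB mice (-0.76, adjusted p = 0.0474). The calls of the Vars2 probe lower in HAB, of Pop4 and of Rpp14 were lost without any one of the 6 HAB and LAB arrays (adjusted p up to 0.179). The call of Cars was lost without any one of these arrays other than LAB 14 (adjusted p up to 0.103).

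In the lysosome list only Ctsb was called among 23 tested genes. Ctsb, a cysteine protease of the lysosome, had 50.9, 47.9 and 26.9 in HAB mice, 282, 233 and 257 in NAB mice and 267, 261 and 212 in LAB mice, and was 6.08-fold lower in HAB (log2 difference -2.60, SE 0.24, adjusted p = 0.00184). All 3 HAB arrays lay far below the lowest LAB array, and NAB and LAB overlapped. A second Ctsb probe averaged 98.7 ± 7.83 in HAB and 75.6 ± 2.44 in LAB, a difference of the opposite sign that did not pass (+0.38, adjusted p = 0.289). The 23 genes summed to 2098 to 2163 in HAB, 2288 to 2394 in NAB and 2425 to 2591 in LAB. Without Ctsb these sums were 2047 to 2136 in HAB, 2031 to 2119 in NAB and 2164 to 2324 in LAB, so HAB stayed below LAB by a smaller margin. The median over the list's 31 probes was -0.05, against -0.09 over all tested probes, of which 66.8% had lower means in HAB. Several other lists, though not all, had HAB sums below every LAB sum. Among them were glutamate receptors (1988 to 2074 in HAB and 2141 to 2323 in LAB) and synaptic vesicle release (4994 to 5505 in HAB and 5554 to 6015 in LAB). The separation was thus not particular to the lysosome.

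B3galt6 and Hs3st3a1, which build heparan sulfate, were lower in HAB. B3galt6, the galactosyltransferase that builds the linker between proteoglycan core proteins and their heparan or chondroitin sulfate chains, had 6.29, 6.50 and 8.42 in HAB mice, 64.7, 57.5 and 50.4 in NAB mice and 62.5, 61.0 and 52.6 in LAB mice. It was 8.35-fold lower in HAB (log2 difference -3.06, SE 0.16, adjusted p = 0.000165), with HAB at background on 2 of 3 arrays, and 6.38-fold lower with the background as the floor of these arrays. The gene's second probe pointed the same way, with 10.2, 10.4 and 9.67 in HAB mice and 24.5, 25.7 and 24.8 in LAB mice (-1.31, adjusted p = 0.00172). Hs3st3a1, a heparan sulfate 3-O-sulfotransferase, had 7.93, 6.18 and 6.04 in HAB mice, 16.0, 8.46 and 11.3 in NAB mice and 22.9, 24.0 and 26.6 in LAB mice, and was at least 2.67-fold lower in HAB (adjusted p = 0.00805), and its other probe stood at -0.08 (adjusted p = 0.944). The call of Hs3st3a1 was lost without HAB 11 (adjusted p = 0.0529). These were 2 of 15 tested heparan sulfate genes, against 1.01% of all named genes tested. Nothing is read from this, as earlier results were known when the list was drawn up. The median of the list's 19 probes was -0.17. Among the rest, Ext2, a polymerase of the chain, had the next largest difference (5.59 ± 0.453 in HAB and 13.2 ± 5.06 in LAB, -1.17, adjusted p = 0.342).

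On chromosome 4 B3galt6 lies near Cptp, the gene of a transfer protein for ceramide-1-phosphate, which differed in the opposite direction. Cptp had 31.8, 30.0 and 32.5 in HAB mice, 3.69, 2.38 and 2.89 in NAB mice and 4.09, 3.13 and 3.59 in LAB mice, and was at least 4.07-fold higher in HAB (adjusted p = 0.000165). Between these genes 5 protein-coding genes lie on the RefSeq map, and both are read from the minus strand. Their promoter windows, 250 bases before to 50 after the start site in RefSeq's GRCm38.p6 reference, are printed because they belong to called neighbours with large differences in opposite directions. The reference is not the sequence of either line. For Cptp (chr4:155869391-155869690) capitals mark CCAAT and GGGCGG boxes on both strands, and for B3galt6 (chr4:155992629-155992928) they mark copies of a run of bases, CGAGTCGCGCAGGCGCCTTCCAG, with neither box among them.
Cptp: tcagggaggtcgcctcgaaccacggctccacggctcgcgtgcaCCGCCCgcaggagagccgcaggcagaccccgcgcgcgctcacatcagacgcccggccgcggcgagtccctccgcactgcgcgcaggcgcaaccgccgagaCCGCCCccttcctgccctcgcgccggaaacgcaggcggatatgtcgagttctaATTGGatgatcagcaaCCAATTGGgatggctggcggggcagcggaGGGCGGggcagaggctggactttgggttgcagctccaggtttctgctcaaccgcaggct
B3galt6: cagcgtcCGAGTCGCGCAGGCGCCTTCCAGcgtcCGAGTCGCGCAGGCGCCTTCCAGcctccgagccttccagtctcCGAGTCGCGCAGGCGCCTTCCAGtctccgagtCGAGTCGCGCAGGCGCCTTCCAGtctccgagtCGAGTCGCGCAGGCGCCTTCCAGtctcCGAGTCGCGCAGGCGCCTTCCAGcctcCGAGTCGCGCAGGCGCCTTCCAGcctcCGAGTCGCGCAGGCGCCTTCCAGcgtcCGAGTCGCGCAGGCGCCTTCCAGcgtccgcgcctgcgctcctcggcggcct
The Cptp window held 3 CCAAT boxes, of which a pair overlap, and 3 GGGCGG boxes, with 69.0% G and C. CCAAT occurred in 37.4% and GGGCGG in 35.7% of 32851 promoter windows, searched on both strands. The B3galt6 window held 9 copies of its repeat, no box of either kind and 72.7% G and C, against a median of 52.7% over all windows. The repeat was found in 4 windows (0.0122%). These matches describe letters in a reference, and no relation of them to the difference between HAB and LAB was tested.

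Genes that bind or repair DNA, and clock genes, were also among those called. Nipbl, which loads cohesin onto chromosomes, had 10.7, 9.40 and 8.45 in HAB mice, 62.9, 69.6 and 67.0 in NAB mice and 48.3, 62.0 and 50.4 in LAB mice at 1 probe and was 5.63-fold lower in HAB (log2 difference -2.49, SE 0.14, adjusted p = 0.000165). The 4 other tested Nipbl probes, all brighter in HAB than that probe, ran from -0.27 to -0.06 and did not pass. Ercc5, an endonuclease of nucleotide excision repair, had 35.6, 36.9 and 20.8 in HAB mice and 6.35, 4.31 and 4.80 in LAB mice, and was at least 3.90-fold higher in HAB (adjusted p = 0.00184). Its other probe had the opposite sign, with 11.8 ± 3.55 in HAB and 17.9 ± 8.89 in LAB (-0.53, adjusted p = 0.889). The base excision glycosylases Mpg and Mbd4 differed in opposite directions, Mpg with 15.9, 23 and 19.9 in HAB mice and 7.97, 8.12 and 5.43 in LAB mice (+1.46, adjusted p = 0.0302) and Mbd4 with 15.6, 17.3 and 16.1 in HAB mice and 24.1, 27.3 and 25.4 in LAB mice (-0.65, adjusted p = 0.0474). The calls of Mpg and Mbd4 were lost without any one of the 6 HAB and LAB arrays (adjusted p up to 0.193).

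Noct (nocturnin), whose transcript cycles with the clock, had 108, 94.7 and 70.7 in HAB mice, 197, 178 and 169 in NAB mice and 227, 209 and 213 in LAB mice, and was 2.41-fold lower in HAB (log2 difference -1.27, SE 0.16, adjusted p = 0.0105). A second Noct probe stood at +0.08 (adjusted p = 0.971). Npas2, a partner of the clock protein BMAL1, had 6.11, 6.25 and 6.42 in HAB mice and 18.6, 21.0 and 14.2 in LAB mice, and was at least 1.94-fold lower in HAB (adjusted p = 0.0356). Zfp704, a zinc finger gene, had 91.8, 91.2 and 97.9 in HAB mice, 99.5, 58.5 and 54.6 in NAB mice and 10.2, 10.2 and 12.4 in LAB mice at 1 probe, 8.58-fold higher in HAB (log2 difference +3.10, SE 0.22, adjusted p = 0.000667). Its other probe stood at -0.38 (adjusted p = 0.676). The call of Npas2 was lost without any one of the 6 HAB and LAB arrays (adjusted p up to 0.164). The call of Noct was lost without HAB 11, LAB 10 or LAB 16 (adjusted p up to 0.0642).

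Trim11, Usp53, Usp29 and Bag2, which mark, spare or fold proteins, were higher in HAB, and Hspb8 was lower. Trim11, a ubiquitin ligase, had 43.3, 40.9 and 36.6 in HAB mice, 31.6, 40.3 and 29.5 in NAB mice and 5.41, 6.84 and 6.12 in LAB mice, and was at least 5.21-fold higher in HAB (adjusted p = 0.000165). It was the only called gene of 18 tested in the TRIM family, whose 34 probes had a median of -0.12. Both called probes of Usp53, a member of the ubiquitin protease family, were higher in HAB (at least 3.18-fold, adjusted p = 0.00113, and at least 1.95-fold, adjusted p = 0.0279). Usp29, another such gene, had 95.5, 97.9 and 91.4 in HAB mice and 54.7, 46.0 and 53.9 in LAB mice (+0.89, adjusted p = 0.0105), and its other probes stood at +0.14 and +0.01. Bag2, a partner of Hsp70, was at least 1.83-fold higher in HAB (adjusted p = 0.00385), and Hspb8, a small heat shock protein, was 2.38-fold lower in HAB (log2 difference -1.25, SE 0.21, adjusted p = 0.0356). The calls of the second Usp53 probe and of Hspb8 were lost without any one of these arrays other than HAB 17 (adjusted p up to 0.169). The call of Usp29 was lost without HAB 01 or HAB 11 (adjusted p up to 0.0648).

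Cell type markers gave 4 called genes in 3 lists. Fcrls, an Fc receptor-like gene of microglia, had 59.3, 50.3 and 55.4 in HAB mice, 44.2, 76.2 and 51.6 in NAB mice and 13.1, 11.0 and 11.3 in LAB mice, and was 4.67-fold higher in HAB (log2 difference +2.22, SE 0.20, adjusted p = 0.00172). Mpeg1, a perforin of macrophages and microglia, had 29.1, 23.5 and 16.0 in HAB mice, 3.31, 4.04 and 3.66 in NAB mice and 5.09, 3.51 and 3.29 in LAB mice, and was at least 2.88-fold higher in HAB (adjusted p = 0.00243). Of the list's 11 probes 7 had lower means in HAB, about the share of all tested probes (66.8%), among them those of C1qb at -0.44 (adjusted p = 0.362), C1qc at -0.55 (adjusted p = 0.247) and Cx3cr1 at -0.36 (adjusted p = 0.551). Without the called genes the microglial sum was 190 to 223 in HAB, 186 to 239 in NAB and 230 to 252 in LAB, where HAB lay below LAB. The list's median was -0.06.

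Slco1c1, the thyroid hormone transporter of the vessels of the brain, had 32.8, 24.4 and 18.9 in HAB mice, 36.0, 28.7 and 28.4 in NAB mice and 99.7, 89.0 and 83.4 in LAB mice, and was 3.66-fold lower in HAB (log2 difference -1.87, SE 0.20, adjusted p = 0.00487). All HAB and NAB arrays lay below the LAB arrays. It was the single call among 11 tested genes of endothelium and pericytes, whose sum was 401 to 493 in HAB, 512 to 528 in NAB and 542 to 630 in LAB. Without Slco1c1 the sum was 377 to 460 in HAB, 475 to 500 in NAB and 458 to 530 in LAB, so HAB and LAB overlapped at the edge. Other vessel genes that did not pass were Flt1 (74.2 ± 12.6 in HAB and 90.9 ± 11.2 in LAB), Tek (12.4 ± 2.43 in HAB and 16.9 ± 0.659 in LAB) and the pericyte gene Pdgfrb (16.4 ± 1.63 in HAB and 12.6 ± 0.949 in LAB). Outside the list, Reck, a membrane protein that restrains matrix proteases and is needed for brain vessels, had 5.80, 5.35 and 5.16 in HAB mice and 17.7, 19.1 and 15.6 in LAB mice, and was at least 1.90-fold lower in HAB (adjusted p = 0.000667).

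Globin probes of the red blood cell list had higher means in HAB, and 1 of them passed. Hbb-bs, the adult beta globin, had 205, 158 and 307 in HAB mice, 39.6, 27.7 and 98.4 in NAB mice and 28.9, 33.8 and 24.6 in LAB mice at its called probe, 7.45-fold higher in HAB (log2 difference +2.90, SE 0.44, adjusted p = 0.0232). The call of Hbb-bs was lost without any one of the 6 HAB and LAB arrays (adjusted p up to 0.11). The other 8 Hbb-bs probes ran from +0.32 to +1.17, the alpha globin Hba-a1 stood at +0.67 and Hbb-bt at +1.09, and 12 of 12 probes of the list had higher means in HAB, with a median of +0.66. The list's sum was 529 to 959 in HAB, 539 to 685 in NAB and 394 to 520 in LAB. Hbb-b2, a gene named beta globin too, went the other way, with 8.88, 7.58 and 9.36 in HAB mice, 49.4, 65.3 and 34.2 in NAB mice and 34.5, 30.9 and 29.2 in LAB mice (-1.87, adjusted p = 0.00746). The call of Hbb-b2 was lost without HAB 11 (adjusted p = 0.0505). The beta globin genes are near-identical, so which gene each probe measured is uncertain. How much blood the dissected tissue held was not tested.

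Oligodendrocyte and myelin genes had 0 called of 12, with 7 of 22 probes at an unadjusted p below 0.05 in limma (8.22% of all tested probes were), a median of +0.19 and sums of 1013 to 1185 in HAB, 1028 to 1168 in NAB and 842 to 948 in LAB. The HAB and LAB sums did not overlap. Mbp, a main protein of myelin, averaged 396 ± 41.7 in HAB and 302 ± 23.7 in LAB at its brightest probe (+0.39, adjusted p = 0.422), but 89.4 ± 8.14 in HAB and 117 ± 2.93 in LAB at its second (-0.39, adjusted p = 0.259). Opalin had 26.4 ± 5.57 in HAB and 16.2 ± 1.35 in LAB (+0.69, adjusted p = 0.182). Pmp22, a membrane protein of myelin in peripheral nerve that was not in the list, had 50.9, 36.0 and 47.4 in HAB mice, 30.1, 42.0 and 29.1 in NAB mice and 8.19, 8.39 and 5.20 in LAB mice, and was 6.24-fold higher in HAB (log2 difference +2.64, SE 0.24, adjusted p = 0.00172). The Pmp22 fold was 5.29 with the background as the floor.

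Genes of young neurons (Dcx, Sox11, Neurod1 and others) had 0 called of 8 and 0 probes at an unadjusted p below 0.05 in limma, with a median of +0.08 and sums of 303 to 361 in HAB, 234 to 314 in NAB and 297 to 313 in LAB. Immediate early genes, which report recent neuronal activity, had 0 called of 15, and 7 of their 20 probes had an unadjusted p below 0.05, as 8.22% of all tested probes did. The 20 probes had a median of -0.33 (-0.09 over all tested probes), the lowest of the 32 lists, and 17 had lower means in HAB, as had 66.8% of all tested probes. Fos averaged 12.0 ± 2.12 in HAB and 21.5 ± 6.05 in LAB (-0.81, adjusted p = 0.342), and both Homer1 probes lay without overlap between the lines, as 14.8% of all tested probes did (-0.50, adjusted p = 0.422, and -0.49, adjusted p = 0.356). Egr3 stood on the other side of 0 at both of its probes (+0.39 and +0.13). In the mice that by their labels had no DG values, the same probes had a median of +0.09 over the other regions.

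**Figure D3:**
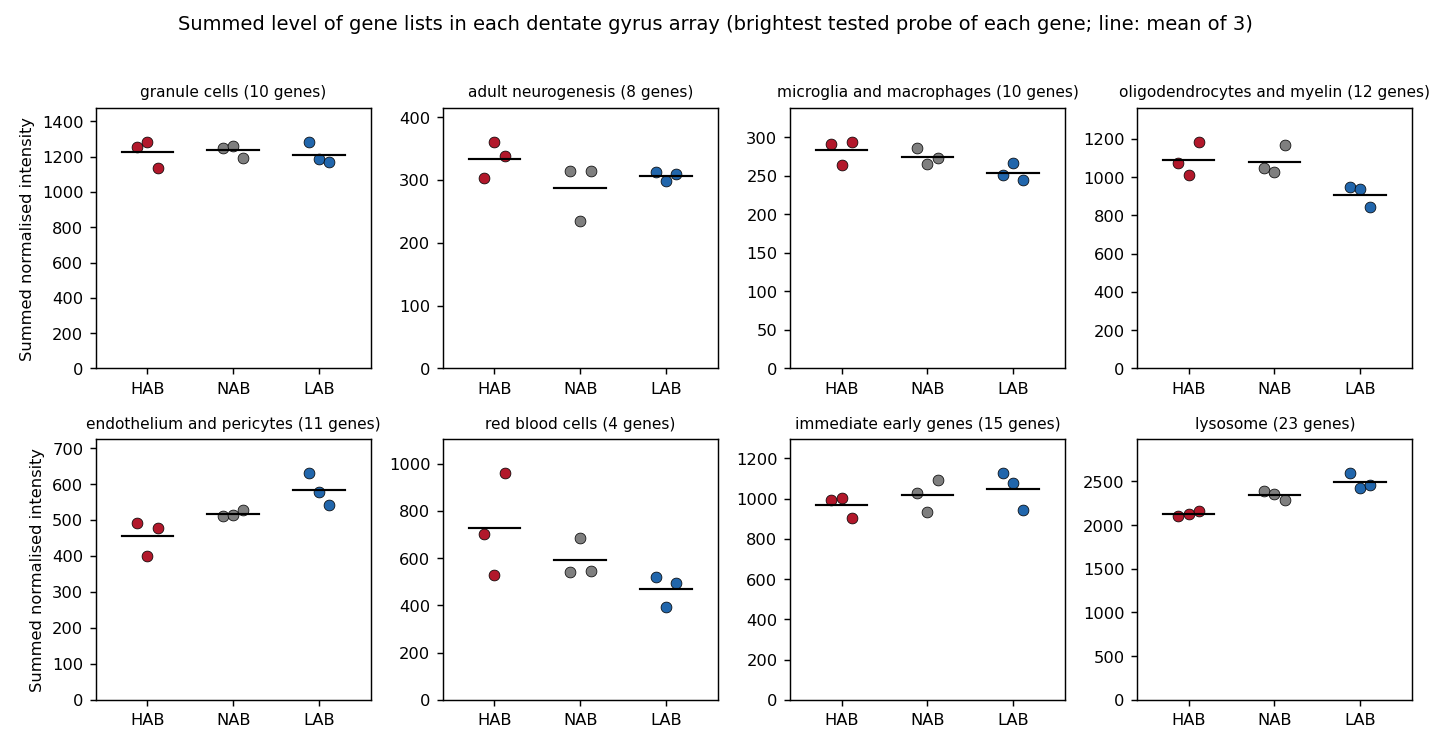
Summed normalised intensity (y axis, starting at 0) of 8 gene lists in each DG array by line (HAB, NAB, LAB); points are mice, lines are means of 3, and each gene enters with its brightest tested probe. Granule cell genes overlap between the lines, HAB lies below LAB for the lysosome and for the endothelium, and HAB lies above LAB for red blood cells and for myelin. HAB also lay below LAB in several lists not shown, such as glutamate receptors.

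Over all 32 lists, 19 of 326 tested genes were called and 19 lists had no call. Without the study's and earlier candidates and the qPCR references, 15 of 301 genes in 29 lists were called (4.98%), against 109 of 10813 named genes in all (1.01%). The lists were drawn up with earlier results of these arrays known, so nothing is read from the difference between these shares. Lists with no call included those of astrocytes, interneurons, hilar mossy cells, pyramidal cells, glutamate, GABA and monoamine receptors, neuropeptides, glucocorticoid-responsive genes and the COP9 signalosome. Of 15 genes of metallothioneins and zinc transporters, which bind or move zinc, only Slc30a6 was called, a zinc transporter of the Golgi, with 16.9, 18.9 and 20.5 in HAB mice, 28.8, 21.9 and 23 in NAB mice and 6.44, 10.2 and 6.53 in LAB mice (+1.31, adjusted p = 0.0253). A brighter Slc30a6 probe averaged 58.1 ± 7.69 in HAB and 53.2 ± 8.53 in LAB (+0.13, adjusted p = 0.919), and the zinc transporter of synaptic vesicles, Slc30a3, averaged 462 ± 57.8 in HAB and 462 ± 19.6 in LAB. Of 7 tested genes for antigen presentation, H2-T23, a non-classical class I molecule, had 11.8, 8.89 and 11.8 in HAB mice and 5.28, 3.79 and 5.14 in LAB mice, and was at least 1.39-fold higher in HAB (adjusted p = 0.0253). Its other probes stood at +0.64 and +1.31 and did not pass. The call of H2-T23 was lost without any one of the 6 HAB and LAB arrays (adjusted p up to 0.122). The call of Slc30a6 was lost without any one of these arrays other than LAB 14 (adjusted p up to 0.126). Class I genes are near-identical to each other, so the source of this signal is uncertain.

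The study's own candidates for qPCR were chosen partly on these arrays and are no independent evidence. Of 26 tested here, 5 were called higher in HAB (Aldh3a2, Dgkq, Gnaq, Pdhb and Stx3) and 2 lower (Apbb1 and Ctsb), and their 42 probes had a median of -0.03. Apbb1, an adaptor that binds the amyloid precursor protein, had 106, 109 and 100.1 in HAB mice, 168, 177 and 149 in NAB mice and 213, 165 and 185 in LAB mice, and was 1.78-fold lower in HAB (log2 difference -0.83, SE 0.13, adjusted p = 0.0272). The call of Apbb1 was lost without any one of these arrays other than LAB 14 (adjusted p up to 0.12). Enpp5, a phosphodiesterase-family protein, averaged 59.5 ± 16.0 in HAB and 262 ± 14.4 in LAB without overlap, yet it did not pass (-2.17, adjusted p = 0.130). Slc25a17 (-0.96, adjusted p = 0.376), Hmgn3 (+0.47, adjusted p = 0.379) and Mt1 (-0.10, adjusted p = 0.917) did not pass either.

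Of the genes tied to these lines in earlier work, 0 of 3 tested were called by limma (1 at an unadjusted p below 0.05). Glo1, which detoxifies methylglyoxal, had 287, 335 and 265 in HAB mice and 711, 590 and 685 in LAB mice. The lines did not overlap, and the difference of -1.17 had an adjusted p of 0.104. Enoph1 stood at +0.01 and Avp, the vasopressin precursor, at -0.23 near background, and Tmem132d was not above background in enough arrays to be tested.

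A probe did not always speak for its gene. Of the 109 called genes 65 had a single tested probe. Another 40 had 1 called probe and together 67 further tested probes, of which 40 had the sign of the called one. The called probe and others of Ctsb, Pdhb, Rtn4, Zfp704, Ercc5, Dgkq and Tspan18 differed in sign. At Gnaq and Nipbl the other probes ran from -0.38 to +0.19, and at Ipo7 and Add3 from -0.10 to +0.09. Ipo7, an importer of proteins into the nucleus, had 3.10, 3.48 and 2.67 in HAB mice and 9.56, 19.0 and 11.4 in LAB mice at its called probe and 71.5 ± 4.84 in HAB and 75 ± 10.3 in LAB at the other. Add3, an adducin of the membrane skeleton, had 24.6, 35.4 and 32.2 in HAB mice and 4.59, 5.82 and 5.76 in LAB mice at its called probe (at least 3.93-fold, adjusted p = 0.00163) and stood at -0.10 at the brightest one. Only B3galt6, Hyi and Usp53 had more than 1 called probe in the same direction. Whether the lines differ in sequence under a probe was not tested.

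NAB lay on either side at the called probes. The comparisons with NAB share arrays with that of HAB and LAB, so they are given as values only: HAB and NAB differed at 123 probes (0.659%) and NAB and LAB at 117 (0.627%). Among the 70 probes higher in HAB the NAB mean lay beyond HAB at 22, in the outer 25% of the gap on the HAB side at 10, in the middle at 11, in the outer 25% on the LAB side at 14 and beyond LAB at 13. Among the 72 lower in HAB the same places held 6, 10, 16, 21 and 19 probes. Stx3, Cptp, Gnaq, Rtn4, Ctsb, B3galt6, Nipbl and Vps13a were examples with NAB beside LAB. Ndufa13, Trim11, Fcrls, Yipf4, Ttc27 and Slco1c1 were examples with NAB beside HAB. So was 1600014C10Rik, which had 38.8, 35.8 and 31.9 in HAB mice, 44.2, 40.9 and 42.4 in NAB mice and 6.70, 6.07 and 7.54 in LAB mice, and was at least 4.58-fold higher in HAB (adjusted p = 0.000165). Ttc27, a tetratricopeptide repeat gene, had 9.12, 12.8 and 7.18 in HAB mice, 11.7, 10.0 and 12.1 in NAB mice and 58.9, 62.9 and 61.4 in LAB mice (-2.70, adjusted p = 0.000819). Zcchc9, a zinc knuckle gene, had 3.87, 3.10 and 4.35 in HAB mice, 18.9, 11.5 and 11.1 in NAB mice and 11.7, 20.0 and 13.6 in LAB mice, was at least 1.60-fold lower in HAB (adjusted p = 0.0141) and had NAB beside LAB. The call of Zcchc9 was lost without HAB 01, HAB 11 or LAB 16 (adjusted p up to 0.0757).

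Set against the other regions, the DG difference stood apart at 24 probes (0.129%) by a joint limma fit of all 75 arrays with the mouse as a random block. The contrast was HAB minus LAB in the DG, minus the mean of HAB minus LAB in the Cg, CeA, PVN and BLA. It was positive at 13 probes and negative at 11, and 11 of the 24 had also been called within the DG, a comparison that shares the DG arrays. Of the 24, 8 had the opposite sign on average elsewhere. Adding 16 to each intensity before the log2 raised the count to 65 and array weights raised it to 110, and without HAB array 11 it was 16.

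Cyth4, an exchange factor for Arf GTPases known from blood cells, had the lowest p of the 24. In the DG it had 51.3, 41.2 and 48.9 in HAB mice, 111, 142 and 51.1 in NAB mice and 145, 140 and 130 in LAB mice. HAB and LAB were far apart and NAB spanned both, and the DG test alone did not pass (-1.56, adjusted p = 0.107). In the other regions Cyth4 averaged 53.7 to 61.6 in HAB and 58.9 to 66.0 in LAB, and the contrast was -1.44 (SE 0.17, adjusted p = 7.14e-08). The mean of the LAB arrays in the DG was above those of either line in the other regions. Cyp4f13, a cytochrome P450, had 46.5, 48.2 and 51.9 in HAB mice, 21.6, 23.1 and 21.1 in NAB mice and 17.1, 17.5 and 21.4 in LAB mice, and was 2.63-fold higher in HAB (log2 difference +1.39, SE 0.12, adjusted p = 0.00172). Elsewhere it averaged 21.8 to 34.4 in HAB and 18.5 to 27.6 in LAB, and the contrast was +1.11 (SE 0.15, adjusted p = 1.65e-06).

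Lypd6, a Ly6-family protein that binds nicotinic receptors, was among the 24 with both of its probes. The first averaged 19.1 ± 5.64 in HAB and 33.4 ± 9.34 in LAB in the DG (-0.81, adjusted p = 0.594), but its mean was higher in HAB in each other region, by 1.01 to 1.45 on the log2 scale. Its contrast was -2.02 (SE 0.36, adjusted p = 0.00112). The second had 28.1, 23.3 and 28.7 in HAB mice, 50.2, 65.2 and 39.2 in NAB mice and 65.1, 87.5 and 59.3 in LAB mice in the DG and was 2.62-fold lower in HAB (log2 difference -1.39, SE 0.22, adjusted p = 0.0272). There the other regions ran from -0.40 to -0.05, and the contrast was -1.20 (adjusted p = 0.0420). The probes thus shared the sign in the DG and differed in sign elsewhere. The call of the second Lypd6 probe was lost without any one of the 6 HAB and LAB arrays (adjusted p up to 0.142).

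Trim11 was higher in HAB everywhere and more so in the DG, where HAB averaged 40.3 ± 3.37, against 19.2 to 21.7 in HAB of the other regions. LAB averaged 6.12 ± 0.715 in the DG and 5.49 to 8.82 elsewhere (contrast +1.17, adjusted p = 0.00112). The vault protein gene Mvp had 38.6, 46.8 and 43.5 in HAB mice and 25.6, 22.4 and 22.5 in LAB mice in the DG, 1.83-fold higher in HAB (log2 difference +0.87, SE 0.13, adjusted p = 0.0203), with a contrast of +0.69 (adjusted p = 0.00405). Efna5, an ephrin that guides axons, averaged 30.1 ± 5.73 in HAB and 53.5 ± 8.18 in LAB in the DG and stood between -0.21 and +0.10 elsewhere (contrast -0.80, adjusted p = 0.0427). The second B3galt6 probe was lower in HAB in all regions and more so in the DG (contrast -0.70, adjusted p = 0.00578). The call of Mvp was lost without any one of these arrays other than HAB 01 (adjusted p up to 0.103).

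Some of the 24 contrasts rested on regions where the probe was not above background, so that no difference could be measured there. At Bnip5, Rims3 and probe 106200541 most or all LAB arrays lay at background in the DG itself. Tspan18, a tetraspanin, had 12.4, 13.9 and 10.0 in HAB mice, 3.44, 3.25 and 3.63 in NAB mice and 3.12, 3.86 and 3.59 in LAB mice in the DG, at least 1.56-fold higher in HAB (adjusted p = 0.00163), and lay at background on every HAB and LAB array elsewhere (contrast +1.44, adjusted p = 0.00112). A pair of brighter Tspan18 probes had the opposite sign and did not pass, with 29.7 ± 5.68 in HAB and 38.7 ± 3.10 in LAB (-0.40, adjusted p = 0.523), and 16.1 ± 5.32 in HAB and 24.9 ± 1.69 in LAB (-0.68, adjusted p = 0.416). Atrnl1, an attractin-like membrane protein, had 30.8, 23.5 and 18.3 in HAB mice, 24.9, 13.1 and 27.4 in NAB mice and 3.21, 6.32 and 2.71 in LAB mice in the DG, at least 3.06-fold higher in HAB (adjusted p = 0.0204). It was above background on 3 HAB arrays and 0 LAB arrays elsewhere (contrast +1.90, adjusted p = 0.0154). The call of Atrnl1 was lost without any one of these arrays other than LAB 14 (adjusted p up to 0.105). Stra6, the receptor for retinol-binding protein, averaged 18.1 ± 2.32 in HAB and 39.4 ± 4.29 in LAB in the DG, and was above background elsewhere only in the BLA (contrast -1.22, adjusted p = 0.00843). Hs3st3a1 lay at background in the CeA and BLA, and was lower in HAB in the Cg (15.2 ± 1.69 in HAB and 26.5 ± 4.10 in LAB).

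**Figure D4:**
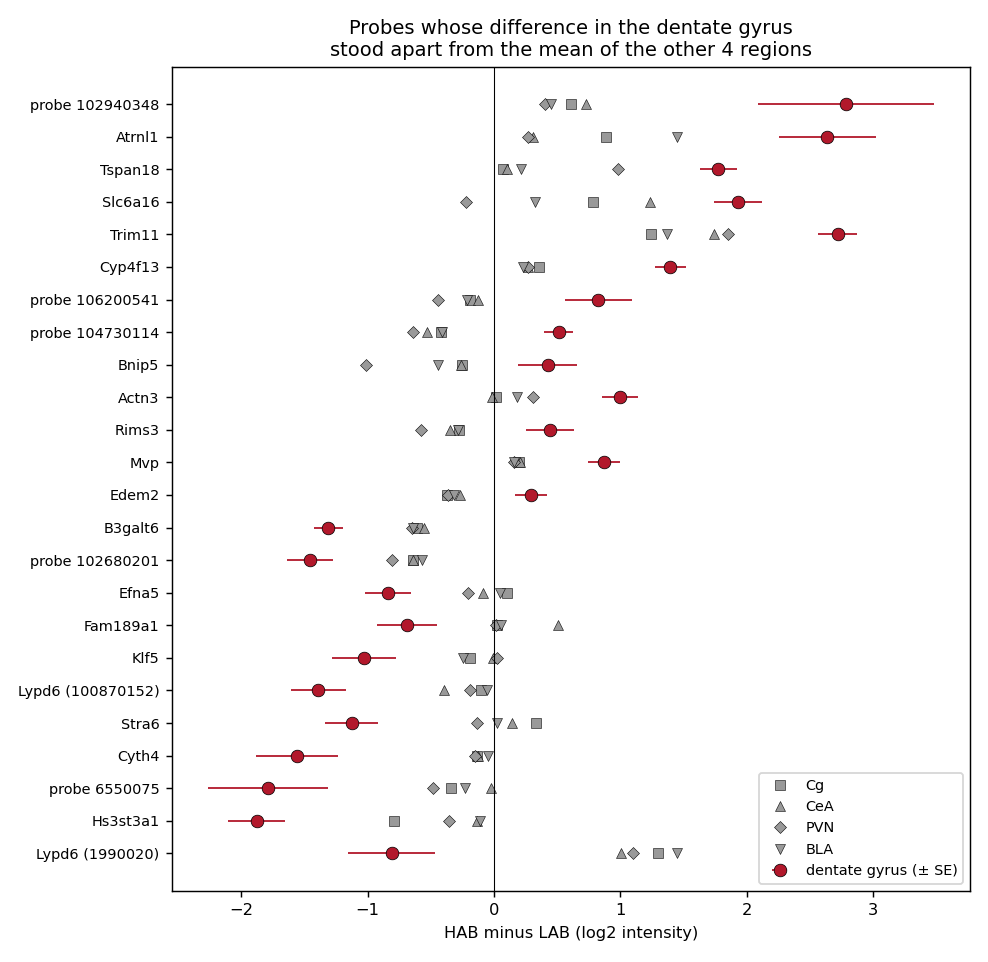
HAB minus LAB (x axis, log2 intensity) for the 24 probes (y axis) whose DG difference stood apart from the mean of the other 4 regions; red circles with bars are the DG and its SE, and grey squares, triangles up, diamonds and triangles down are the Cg, CeA, PVN and BLA. The grey symbols of Cyth4 lie between -0.15 and -0.05 and those of Cyp4f13 between +0.23 and +0.36, and Lypd6 probe 1990020 is negative in the DG and positive in the other 4.

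Most of the 142 DG probes differed in the same direction in other regions. With the same probes tested region by region, HAB and LAB differed at 402 (2.15%) in Cg arrays, 363 (1.94%) in CeA arrays, 365 (1.96%) in PVN arrays and 400 (2.14%) in BLA arrays, with 5 or 6 arrays a line. The 142 passed with the sign of the DG at 108 (Cg), 111 (CeA), 110 (PVN) and 107 (BLA). They did so in all 4 at 90, in 1 to 3 at 35 and in none at 17, of which 5 were higher in HAB and 12 lower. These regions come in part from the mice of the DG arrays. The 17 included Cyp4f13, Mvp and Actn3 among those higher, and Mas1, Lypd6, Npas2, Rspo3, Palmd, Plekhd1, Ptpn22, Mbd4, Mipep and Galnt14 among those lower. Passing in one region and not in another is no test of a difference, and of the genes named only Cyp4f13, Mvp, Actn3 and Lypd6 passed the joint test.

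The same probes were also tested in mice without DG values, over 35 arrays of the other 4 regions (3 HAB, 4 NAB and 5 LAB mice by the labels). Of these, 2 HAB mice and 1 LAB mouse had a DG array that was left out. In these HAB and LAB differed at 560 of the 18664 probes (3.00%). Of the 142 DG probes, 138 had the sign of the DG and 119 (83.8%) passed with it, 61 of them higher in HAB and 58 lower. None passed with the opposite sign. Stx3 stood at +2.92 (adjusted p = 5.39e-18), Ctsb at -3.54 (adjusted p = 9.55e-16), B3galt6 at -3.32 (adjusted p = 1.51e-17) and Cptp at +3.69 (adjusted p = 1.08e-16). These limma p-values come from several arrays of few mice and reflect mostly the spread between arrays. The 4 probes of opposite sign were those of Mas1 (+0.36, adjusted p = 0.906), Mbd4 (+0.18, adjusted p = 0.802) and Ptpn22 (+0.14, adjusted p = 0.973) and probe 5720068 (-0.04, adjusted p = 1). Hs3st3a1 (-0.33), Slc6a16 (+0.47) and Wnt9a (+0.44) kept the sign and did not pass.

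**Figure D5:**
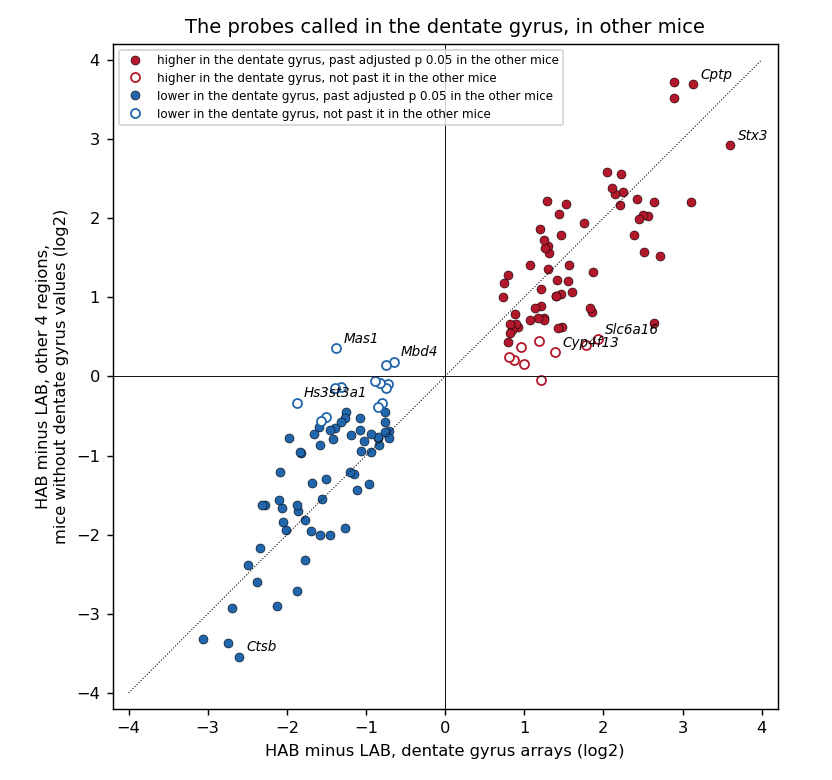
The 142 called probes, with HAB minus LAB in the DG arrays (x axis, log2) against HAB minus LAB over the other 4 regions in mice that by their labels had no DG values (y axis, log2). Filled points passed adjusted p 0.05 in those mice, open points did not, and the dotted line marks equal differences. Filled points number 119 of 142, and Mas1 and Mbd4 are among the 4 that lie across the x axis.

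The places of the called genes were described with no test. Of 108 called genes with a place on the GRCm38.p6 map, 49 (45.4%) had another called gene within 1 Mb, and 13.6% of all 10790 tested genes with a place had a called gene that near. The 37 pairs of called neighbours shared a direction at 15 and differed in direction at 22. The share of tested genes that were called was 2.39% on chromosome 17, 2.06% on 19, 1.89% on 7, 1.68% on 4 and 1.60% on 11, and it was 0 of 317 on chromosome 16 and 0 of 334 on X. The stretches described next were bounded by called genes, so high counts in them were partly set by how they were drawn. Over all tested probes 0.761% were called. From Cptp to 9430015G10Rik on chromosome 4, 9 genes with 12 probes were tested and 5 probes were called. Of these, Cptp was higher in HAB, and so was Tnfrsf4, a receptor of activated T cells (at least 2.12-fold, adjusted p = 0.0133). Both B3galt6 probes and 9430015G10Rik (at least 1.64-fold, adjusted p = 0.00172) were lower. The call of Tnfrsf4 was lost without any one of these arrays other than LAB 16 (adjusted p up to 0.0707).

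In the same stretch Ints11, Acap3, Ube2j2, C1qtnf12 and Sdf4 did not pass, with Sdf4 at 147 ± 12.5 in HAB and 93.8 ± 9.89 in LAB (+0.65, adjusted p = 0.168). On chromosome 17 Slc30a6 and Yipf4 were higher and Ttc27 lower in HAB. In this stretch, also bounded by called genes, 7 probes of 4 genes were tested and 3 were called. Birc6, which lies in it, did not pass at any of 3 probes (-0.28 to -0.35). On chromosome 19 Gnaq was higher and Vps13a lower with 1 protein-coding gene between them. Rpp14 was lower and Pdhb higher on chromosome 14, and Ccdc88a lower and Rtn4 higher on chromosome 11. Stx3 and Mpeg1 shared their direction on chromosome 19.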

How the data were processed

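Illumina bead arrays each held RNA of a single HAB, NAB or LAB mouse. The deposited values are intensities on a linear scale, which the authors extracted with BeadStudio, normalised by QSpline and examined with beadarray (versions not given in the sources used here). Another 156 per-sample columns could not be matched to samples and were not used. Lines and regions were taken from the array titles, and 75 of 78 labelled arrays had values.

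Log2 intensities of the 9 DG arrays were fitted by line in limma 3.58.1 (R 4.3.3), with p-values adjusted by Benjamini and Hochberg over 18664 probes. These lay above the array's background (the 95th percentile of 1305 receptor probes) in at least 3 DG arrays. All p-values of single probes come from limma. Those of the DG fit measure the spread between its mice, whose small number limits the precision. The steps were tested on simulated data. Joint fits over regions took the mouse number of the label as a random block, with a single correlation for all probes. It was 0.0151 over all arrays and 0.0467 in the mice without DG values. Arrays of a mouse thus counted nearly as separate replicates, and p-values of the joint fits reflect mostly the spread between arrays. A fold is the ratio of geometric means, or a bound where every array of the dimmer line lay at background. Probes were named from the platform annotation: 32794 of 46643 had 1 symbol, 55 several and 13794 none, and 32722 symbols were updated through RefSeq (GRCm38.p6), which also gave the promoters. Gene lists used each gene's brightest tested probe for sums. Genes named were the 15 largest differences each way, all called members of the lists, up to 10 region contrasts by size and the study's candidates, and others were picked after their values were seen. Members, lists and tests were chosen with earlier results of these data known. Alternatives varied the filter, the normalisation, an added 16, the arrays in the fit, array weights, blocks and probe averaging.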

Additional observations from a re-analysis of the deposited data

Results flagged for a closer look

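At 24 probes HAB minus LAB in the DG differed from the mean of HAB minus LAB in the other regions, by an interaction contrast in limma with an adjusted p below 0.05. The contrasts on the log2 scale were negative for Lypd6 (probe 1990020) -2.02, Hs3st3a1 -1.53, probe 6550075 -1.51, Cyth4 -1.44, Stra6 -1.22, Lypd6 (probe 100870152) -1.20, Klf5 -0.93, Fam189a1 -0.84, Efna5 -0.80, probe 102680201 -0.79 and B3galt6 -0.70. They were positive for probe 102940348 +2.23, Atrnl1 +1.90, Tspan18 +1.44, Slc6a16 +1.40, Trim11 +1.17, Cyp4f13 +1.11, probe 106200541 +1.07, probe 104730114 +1.02, Bnip5 +0.92, Actn3 +0.88, Rims3 +0.82, Mvp +0.69 and Edem2 +0.62. Some of these probes lay at background in other regions, so that no difference could be measured there, as at Tspan18. Others lay at or near background in the DG itself, where little or no difference could be measured. There Bnip5 averaged 7.99 in HAB and 6.03 in LAB, Rims3 9.38 and 6.77, and probe 106200541 9.86 and 5.54.

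In 4 of 80 groups of 4 or more arrays, examined in the other regions for the 10 probes with the largest of these contrasts, the array farthest from the others stood off by more than the limit of Dixon's test. Chance flags about 1 group in 20. They were a HAB array of the Cg at 6.63 (the next array at 4.15) for probe 102940348, a LAB array of the PVN at 13.5 (next 7.64) for Lypd6 (probe 1990020), a LAB array of the PVN at 33.2 (next 16.6) for probe 6550075 and a HAB array of the PVN at 58.9 (next 54.5) for Cyth4.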

How the results depend on the processing

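Without 1 DG array at a time the 142 calls became 54 (without HAB 11) to 165 (without NAB 04): 54 to 80 without a HAB array, 129 to 165 without a NAB array and 64 to 81 without a LAB array. The 24 region contrasts became 16 to 27. Of 12 other alternatives, 9 left the 142 within 1.5 times (114 to 209). The count was 326 with all 75 arrays and the mouse as a block, 135 of them among the 142, and 84 with the probes of a gene averaged. Arrays of the lines share numbers in their descriptions. Arrays of the same number correlated between -0.54 and 0.65 in their deviations from the line means. Whether they shared a step of the work was not tested. With that number as a replicate block 55 probes were called. The 24 region contrasts became 65 with 16 added before the log2 (20 of the 24 among them) and 110 with array weights (all 24 among them), and were 24 without the mouse as a replicate block. The count of 560 in the other mice was 637 without that block. The cause of these shifts was not tested. For 40 results on named genes, 678 of 759 alternative values stayed past the threshold and 81 did not, and 23 of the 40 stayed past it in every alternative. The sign changed in 0 of them, which most alternatives could not bring about, as the lines did not overlap at these probes. The limit is the number of arrays, with 3 a line, and the dimness of many probes: HAB array 01 had the highest background.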
